A study of Mus musculus with 4 samples.

Results

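The heat shock chaperones examined here are 10 mouse genes, Hspa1a, Hspa1b, Hspa8, Hsp90aa1, Hsph1, Dnajb1, Hspb1, Hspd1, Hspe1 and Bag3, among the 37021 gene names on the array. They were chosen by name, and every non-control probe that carries 1 of these names was used. This gave 20 probes, with 5 genes having 1 probe and 5 genes having more than 1. Liver RNA of C57BL/6 wild-type mice was measured on 4 single-colour arrays, 1 for each group. Females were given 5 mg/kg/day of aristolochic acid I (AAI), a plant compound that is toxic to the kidney and forms DNA adducts, and males were given 2 mg/kg/day. Control mice of each sex received corn oil, the vehicle. Injections were i.p., on 5 days of each of 3 weeks, and the labels give an age of 6 weeks. RNA from the livers of 5 mice was pooled for each array, so that differences between mice were averaged out before the measurement and no test between groups was possible. The AAI-treated pools differ in sex and in dose, which cannot be told apart.

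Heat shock chaperones bind unfolded, newly made or damaged proteins and help them to fold, to be held in solution or to be handed on for degradation. Hsp70 proteins work in cycles of ATP hydrolysis with J-domain proteins and nucleotide exchange factors, Hsp90 acts late in the folding of kinases and steroid receptors, and the chaperonin pair of Hspd1 and Hspe1 folds proteins inside mitochondria. Several of these genes are kept at a basal level and are strongly induced by the transcription factor Hsf1 when proteins unfold.

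Hsf1 binds the heat shock element, a run of inverted GAA units. The regions before the transcription start were therefore read from the RefSeq promoter windows of mouse build GRCm38.p6, which cover 250 bases before and 50 bases after a start and hold 8 of the 10 genes. Hspa8 and Hsp90aa1 had no entry. The 250 bases before the start are shown for the gene with the widest range over the arrays (Hspa1b, chr17:34959239-34959488, minus strand), for the gene whose log2 ratio in females was largest in size (Hspb1, chr5:135887669-135887918, plus strand) and for the gene whose start region is shared with its chaperonin partner (Hspe1, chr1:55087898-55088147, plus strand). Capitals mark matches to GAANNTTC or TTCNNGAA, 2 units of the element. Each of these patterns is its own reverse complement, so that both strands are covered.
Hspa1b: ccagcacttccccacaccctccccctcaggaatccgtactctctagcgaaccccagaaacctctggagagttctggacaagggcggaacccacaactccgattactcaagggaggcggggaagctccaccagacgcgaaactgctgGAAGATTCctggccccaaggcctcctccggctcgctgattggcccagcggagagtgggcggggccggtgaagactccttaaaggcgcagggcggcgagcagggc
Hspb1: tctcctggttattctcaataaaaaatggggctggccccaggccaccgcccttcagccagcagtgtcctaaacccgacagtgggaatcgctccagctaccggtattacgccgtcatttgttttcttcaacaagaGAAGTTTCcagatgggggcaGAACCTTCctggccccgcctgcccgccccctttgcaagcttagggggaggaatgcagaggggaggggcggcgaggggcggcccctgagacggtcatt
Hspe1: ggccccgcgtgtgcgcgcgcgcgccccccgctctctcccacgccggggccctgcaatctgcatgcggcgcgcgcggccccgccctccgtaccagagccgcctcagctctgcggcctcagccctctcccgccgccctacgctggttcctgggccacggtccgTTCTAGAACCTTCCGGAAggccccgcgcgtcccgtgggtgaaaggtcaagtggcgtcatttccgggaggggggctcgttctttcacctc

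A 2-unit match lay in a window of 7 of the 8 genes, and Dnajb1 had none in either of its windows. The only match of Bag3 began 43 bases after the start. For comparison, 15.1% of all 32851 windows held a match. This share is per window, whereas a gene with 2 windows was counted when either held a match. The window of Hspa1b had 1 match, beginning 104 bases before the start, and that of Hspa1a had the same one. These 2 genes lie next to each other on chromosome 17, encode nearly the same inducible Hsp70, and have windows that are identical at 296 of 300 bases. Hspb1 had 2 separate matches, beginning 117 and 97 bases before the start. In the Hspe1 window 3 matches overlapped, beginning 89, 84 and 79 bases before the start. Hspd1, transcribed in the opposite direction, shares 285 of these 300 bases through 1 of its 2 windows and has the same run. Matches to 3 units, GAANNTTCNNGAA or TTCNNGAANNTTC, each contain 2 overlapping 2-unit matches. They were found for Hspd1, Hspe1 and Hsph1, against 0.603% of all windows. That of Hsph1 lay after the start, beginning 37 bases after it in 1 window and 16 in the other. Such matches describe the letters of these windows and were not tested as binding sites.

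**Figure D1:**
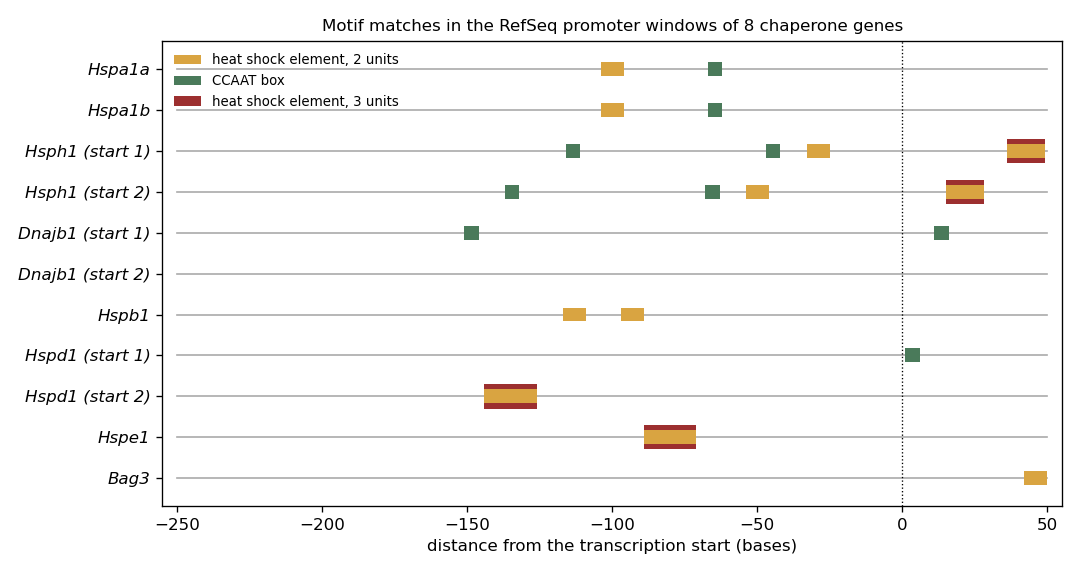
Positions of motif matches in the promoter windows of 8 chaperone genes, drawn as distance in bases from the transcription start (dotted line at 0); genes with more than 1 annotated start have a row for each. Yellow boxes are 2-unit heat shock elements, tall dark red boxes are 3-unit elements drawn behind them, and green boxes are CCAAT boxes, which 37.4% of all windows hold. Hspd1, Hspe1 and Hsph1 carry the 3-unit matches, and Dnajb1 carries only CCAAT boxes.

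No replicate error exists for these arrays, and the spread between different probes of 1 gene was used as a technical measure. For genes with several probes, the SD of their log2 ratios had a median of 0.25 over 9128 genes in females and of 0.24 over 8618 genes in males. Its 90th percentile was 0.64 in females and 0.70 in males. Where the SD between probes is named below, the median is meant. It holds no variation between arrays or between pools. Between 74.7% and 81.5% of all probes were well above background on an array, and no spot was saturated. Of the 20 chaperone probes, 18 were well above background on all 4 arrays, and none of their spots was marked as an outlier. The liver label was borne out by its markers, with 9 of 9 hepatocyte markers above background on every array and a log2 summed signal between 20.76 and 20.95. Sums of the markers of other tissues differed between the groups. The summed normalized signal of 12 skeletal muscle markers was 1511 with corn oil and 48737 with AAI in females, and 6280 with corn oil and 389921 with AAI in males. Of these markers, Myh1 was not well above background in corn oil-treated females, and all others were above it on all arrays. The sum of 8 fat markers was 4811, 5968, 8193 and 88501 in the same order, with Ucp1 not above background in either female pool and Adipoq not above it in corn oil-treated females. The sum of 10 adrenal markers was 3728, 3667, 6715 and 45534, with Cyp11b2 not above background in either female pool and Chgb not above it in corn oil-treated females. The sum of 8 macrophage markers was 48996, 29997, 42224 and 29170, and all were above background throughout. The 6 kidney markers summed to between 1180 and 1676, and Kap among them was above background in AAI-treated females alone. Not all markers of a list went the same way. In males, 6 of 10 adrenal markers were at least 2-fold higher after AAI, while Mc2r was lower, with a log2 ratio of -2.07. Of 8 fat markers, 6 were at least 2-fold higher in males, while Plin1 and Lep had log2 ratios of -0.72 and -0.06. The part of these tissues and cells in the chaperone signals was not tested, and in bulk liver fewer cells of a type and less RNA per cell cannot be told apart.

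Hspb1 was the chaperone at least 2-fold lower after AAI in females, and Hsp90aa1 and Hspa1b were in males. Of the 10 genes, represented by their brightest probes, 9 had a log2 ratio (AAI over corn oil within a sex) below 0 in females, where 44.8% of all genes tested did, and 7 had one below 0 in males, where 48.2% did. Beyond the median SD between probes, 6 genes were lower and none was higher in females, while 4 were lower and 3 higher in males. The share of all genes beyond this SD was not computed, so these counts have no background beside them. The 3 include Hspe1, whose other 2 probes gave -0.02 and -0.03 in males. The male count below 0 depended on the processing, with 4 genes after scaling to the 75th percentile, where 43.5% of all genes were below 0, and 5 with the mean over probes, where 47.7% were, whereas the female count was 9 under each of these. The median log2 ratio of the 10 genes was -0.44 in females and -0.17 in males, beside 0.04 and 0.00 over all genes tested. The male median was 0.02 after scaling to the 75th percentile, so that its sign was not stable. At a threshold of 2-fold, 1 gene was lower in females (Hspb1), where 3.09% of all genes tested were lower, and 2 were lower in males (Hsp90aa1 and Hspa1b), where 4.59% were. None was 2-fold higher in either sex, where 1.37% of all genes were higher in females and 3.51% in males. The highest of the 4 signals was on a corn oil array for 9 genes, beside 47.5% of the 28234 genes above background on all arrays. Hspa1a was the exception, with its highest signal in AAI-treated males. The lowest signal was on an AAI array for 7 genes, beside 47.4% of those genes.

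**Figure D2:**
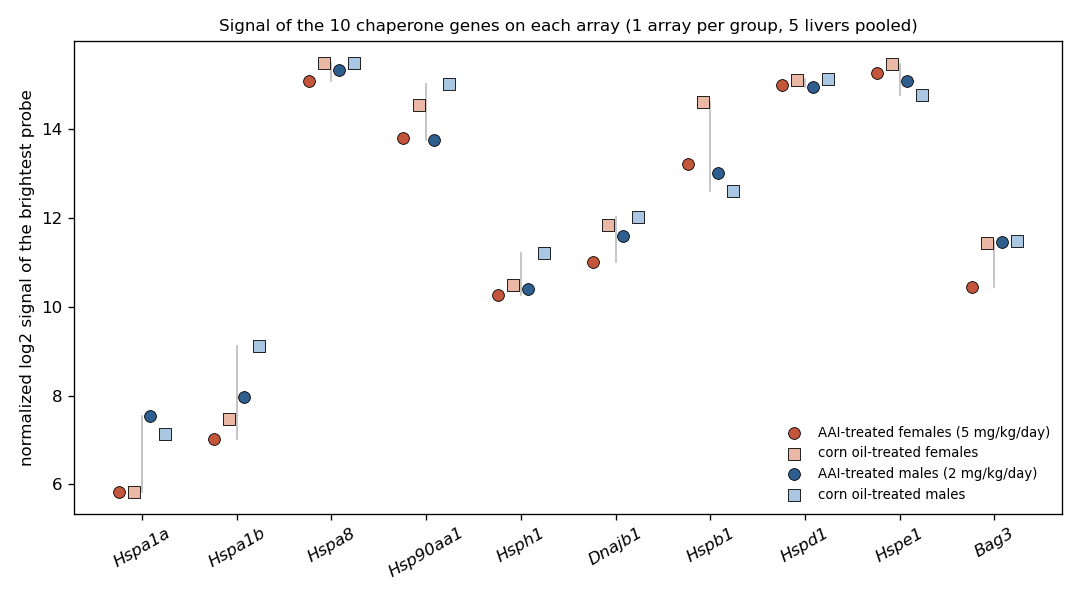
Normalized log2 signal of the brightest probe of each of the 10 chaperone genes on the 4 arrays, with circles for AAI-treated and squares for corn oil-treated pools; grey lines span the lowest to the highest array, each point is 1 array of RNA pooled from 5 livers, and no error bar can be drawn. Hspb1 separates corn oil-treated females (14.62) from the other pools, and Bag3 separates AAI-treated females (10.44) from the other pools. Signals of different genes come from different probes and cannot be set against each other.

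Hspa1a and Hspa1b, the stress-inducible cytosolic Hsp70 pair, were measured by 1 probe each. The Hspa1a probe (NM_010479) lies on chromosome 17 of build mm9, between 35106766 and 35106825, and the part of the Hspa1b probe (NM_010478) placed on the genome lies between 35093374 and 35093405. These 60-base probes matched each other at no more than 21 bases in any ungapped alignment of 20 or more bases, and whether either also binds the transcript of the other gene was not tested. Hspa1b had log2 signals of 7.48 (corn oil) and 7.01 (AAI) in females and 9.13 (corn oil) and 7.96 (AAI) in males. Both male pools were above both female pools, and in each sex the AAI-treated pool was the lower one. Its log2 ratio was -0.47 in females and -1.17 in males, a 2.24-fold lower signal in males. Hspa1a had log2 signals of 5.82 with corn oil and 5.84 with AAI in females, and 7.15 with corn oil and 7.55 with AAI in males. Again both male pools were above both female pools, but the log2 ratio was 0.01 in females and 0.40 in males. The latter was opposite in sign to that of Hspa1b. It was larger than the median SD between probes, 0.24, but below the 90th percentile of that SD, 0.70. With 1 probe, Hspa1a has no such SD of its own.

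Hspa8, the constitutive Hsp70 of the cytosol, stayed within 2-fold on all probes. It was measured by 4 probes (NM_031165, chromosome 9 of mm9, 40610620 to 40613050 from the first to the last probe). The brightest had log2 signals of 15.50 (corn oil) and 15.09 (AAI) in females and 15.49 (corn oil) and 15.34 (AAI) in males. The 4 probes gave log2 ratios from -0.41 to -0.16 in females, all below 0, and from -0.14 to 0.19 in males, where 2 of them were above 0.

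Hsp90aa1, the stress-inducible cytosolic Hsp90, was lower in both AAI-treated pools on both of its probes above background (NM_010480, chromosome 12 of mm9). The brightest, between 111932511 and 111932796, covers 286 bases of the genome with its 60 bases and so crosses an intron, and the other lies between 111933318 and 111933377. They are shown because their ratios run together; each is written as on the array, with nothing in capitals.
Hsp90aa1 probe 1: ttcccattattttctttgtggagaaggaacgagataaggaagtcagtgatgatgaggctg
Hsp90aa1 probe 2: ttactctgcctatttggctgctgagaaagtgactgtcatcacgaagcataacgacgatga
Probe 1 had log2 signals of 14.55 with corn oil and 13.80 with AAI in females, and 15.02 with corn oil and 13.76 with AAI in males. The AAI-treated pools of both sexes had similar signals, and the corn oil-treated males were the highest. Its log2 ratio was -0.75 in females and -1.26 in males, and that of probe 2 was -0.43 and -1.11. The 2-fold threshold was thus passed by both probes in males and by neither in females. The remaining probe, from an expressed sequence tag (BG864327), was not well above background on any array.

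Hsph1, the Hsp110 that returns Hsp70 to its ATP-bound state, followed the same order in males. Its brightest probe (NM_013559, chromosome 5 of mm9, 150419744 to 150419803) had log2 signals of 10.49 (corn oil) and 10.27 (AAI) in females and 11.21 (corn oil) and 10.40 (AAI) in males. The corn oil-treated male pool was above the other pools, by 0.72 over the next highest, corn oil-treated females. The log2 ratio was -0.23 in females, below the SD between probes, and -0.81 in males, and a second probe gave -0.38 and -0.71. The remaining one, near the start of the transcript, was well above background on the corn oil arrays alone, where its log2 signals were 4.34 in females and 4.57 in males.

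Dnajb1, the J-domain protein that delivers clients to Hsp70, had 1 probe (NM_018808, chromosome 8 of mm9, 86135660 to 86135719). Its log2 signals were 11.85 with corn oil and 11.00 with AAI in females, and 12.03 with corn oil and 11.61 with AAI in males. The AAI-treated pool was the lower one in each sex, with log2 ratios of -0.84 in females and -0.43 in males, both short of 2-fold. Both were beyond the median SD between probes, but the male ratio was within the 90th percentile of that SD, 0.70.

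Hspb1, the small heat shock protein that holds unfolding proteins and binds actin filaments, showed opposite directions in the sexes. Its probe (NM_013560) lies on chromosome 5 of mm9, between 136365366 and 136365425. The log2 signal was 14.62 (corn oil) and 13.22 (AAI) in females and 12.61 (corn oil) and 13.03 (AAI) in males. Corn oil-treated females were thus the highest and corn oil-treated males the lowest, and the AAI-treated pools lay between them. Its log2 ratio was -1.40 in females, a 2.64-fold lower signal, and 0.42 in males. The male ratio was beyond the median SD between probes but within the 90th percentile of that SD, 0.70. With 1 probe, Hspb1 has no such SD of its own. The difference between the male and female ratios was 1.82 and could not be tested.

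Bag3, the cochaperone that links Hsp70 and small heat shock proteins to selective autophagy, was lower in AAI-treated females alone. With 1 probe (NM_013863, chromosome 7 of mm9, 135690420 to 135690479), it had log2 signals of 11.44 with corn oil and 10.44 with AAI in females, and 11.49 with corn oil and 11.46 with AAI in males. The 3 other pools lay within 0.06 of each other. Its fold in females, 1.99 downwards, fell just short of the threshold, with a log2 ratio between -1.07 and -0.70 over 7 other ways of computing it, and its log2 ratio in males was -0.03.

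The mitochondrial chaperonin Hspd1 and its cofactor Hspe1 stayed within 2-fold. On the brightest probes, Hspd1 had the narrowest range of the 10 genes. The brightest Hspd1 probe (NM_010477, chromosome 1 of mm9, 55134829 to 55134888) had log2 signals of 15.11 (corn oil) and 14.99 (AAI) in females and 15.14 (corn oil) and 14.95 (AAI) in males, a range of 0.19. Both log2 ratios, -0.12 in females and -0.19 in males, were below the SD between probes. A second, dimmer Hspd1 probe gave 0.04 and 0.58, so that the probes did not give 1 direction in males. The range of this second probe was 0.89. The brightest Hspe1 probe (NM_008303, chromosome 1 of mm9, 55148026 to 55148085) had log2 signals of 15.46 with corn oil and 15.28 with AAI in females, and 14.77 with corn oil and 15.10 with AAI in males. Its log2 ratio was -0.18 in females and 0.32 in males, while the other 2 Hspe1 probes gave -0.12 and -0.26 in females and -0.02 and -0.03 in males.

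**Figure D3:**
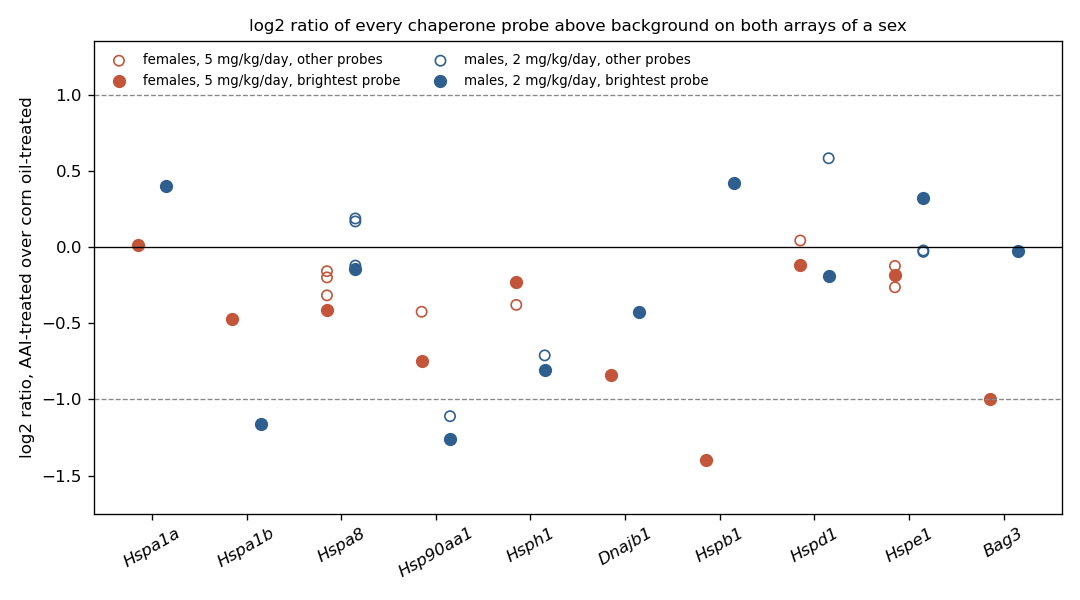
log2 ratio (AAI over corn oil) of each chaperone probe that was above background on both of the arrays compared; filled points are the brightest probe of a gene, open points its other probes, red females and blue males, and dashed lines mark a 2-fold difference. Both Hsp90aa1 probes lie below the lower line in males (-1.26 and -1.11), Hspb1 does so in females (-1.40), and probes of Hspa8 and Hspd1 scatter around 0 in males.

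Corn oil-treated males and females, which differ in no dose, differed at least 2-fold in 3 of the 10 genes, beside 5.69% of all 30891 genes tested. The log2 signal in males minus that in females was 1.65 for Hspa1b and 1.32 for Hspa1a, where 3.83% of all genes were 2-fold higher in males. It was -2.01 for Hspb1, 4.03-fold lower in males, where 1.86% of all genes were 2-fold lower. On their brightest probes, the other 7 genes lay between -0.69 (Hspe1) and 0.72 (Hsph1). Probes of a gene did not always give the same size. The second Hspd1 probe gave -0.85, against 0.03 on the brightest, and the other Hspe1 probes gave -0.31 and -0.36.

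Hspa1b had the widest range of signals over the 4 arrays, 2.12 on the log2 scale. Among 28224 other genes above background on all arrays, the 5 whose centred log2 signals lay closest to it included Arsa, Nox4, Gm1966 and Lad1, with Euclidean distances from 0.16 for Arsa to 0.22 for Lad1. Arsa, a lysosomal sulfatase, had log2 signals of 10.37 (corn oil) and 9.86 (AAI) in females and 11.93 (corn oil) and 10.64 (AAI) in males. With 4 arrays, this likeness is a description only.

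Few of the cytosolic and mitochondrial partners passed 2-fold. None of the 4 heat shock factors and their binding proteins did, and Hsf1 itself had log2 signals of 9.34 with corn oil and 9.17 with AAI in females, and 9.04 with corn oil and 9.47 with AAI in males. Among 9 other Hsp70, Hsp110 and Hsp90 genes none was 2-fold apart in females and 1 was lower in males. This was Hspa13, an Hsp70 of the endoplasmic reticulum rather than the cytosol, with a log2 ratio of -1.02, which was -0.92 and short of 2-fold with the normexp background. The constitutive Hsp90, Hsp90ab1, had log2 ratios of -0.46 in females and -0.03 in males, smaller in males than those of the inducible Hsp90aa1 (-1.26). Hspa4l, an Hsp110 relative, had -0.78 and -0.64. Of 9 other J-domain proteins 1 was 2-fold higher in males, Dnajb5, and none was 2-fold apart in females. None of 17 Hsp70 and Hsp90 cochaperones was 2-fold apart in either sex, with medians of -0.18 in females and -0.17 in males. They include Fkbp4, an immunophilin of steroid receptor complexes, at -0.56 and -0.39, and Bag2, an inhibitor of the ubiquitin ligase Stub1, at 0.67 and 0.71. None of the 8 subunits of the cytosolic chaperonin TRiC was 2-fold apart, with ratios from -0.40 to 0.37 over both sexes. Of 13 other mitochondrial chaperones and proteases only Clpx, the unfoldase of the mitochondrial Clp protease, was past 2-fold, in males, at -1.19, against -0.60 in females. Hspa9, the mitochondrial Hsp70, had 0.58 in females and -0.10 in males.

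Chaperones of the endoplasmic reticulum, which are controlled mainly by the unfolded protein response, gave another order. Of 14 genes, 3 had a log2 ratio below 0 in females and 13 did in males, with medians of 0.20 and -0.42. Of all genes tested, 44.8% and 48.2% were below 0. All 14 were higher in corn oil-treated males than in corn oil-treated females. The median log2 difference between these pools was 0.53, beside -0.03 over all genes tested. Hspa5, the Hsp70 of this compartment, had log2 signals of 14.41 (corn oil) and 14.24 (AAI) in females and 15.52 (corn oil) and 14.47 (AAI) in males. As for Hsp90aa1, the corn oil-treated male pool was the highest. Hspa5 and Creld2 were the 2 genes at least 2-fold lower in males, with log2 ratios of -1.05 and -1.37, and none was in females. Hspa5 fell short of 2-fold after scaling to the 75th percentile (-0.84) and with the normexp background (-0.96).

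Of the small heat shock proteins other than Hspb1, 3 of 8 were at least 2-fold higher after AAI in females and 5 of 8 in males, with medians of 0.41 and 2.06. The female count was 1 with the normexp background, where Hspb7 was at 1.14, Cryab at 0.89 and Hspb3 at 0.58, and 2 after scaling to the 75th percentile, while the male count was 5 under both. The largest ratios were those of Hspb7, with 2.27 in females and 5.58 in males, Hspb3, with 1.41 and 3.97, Cryab, with 1.03 and 3.29, and Hspb2, with 0.44 and 2.58. These genes are known for their expression in heart and skeletal muscle. All 12 skeletal muscle markers were at least 2-fold higher in both sexes, with medians of 5.45 in females and 6.01 in males. Acta1, skeletal muscle actin, was at 8.08 and 6.80. The 8 fat markers had medians of 0.96 in females, where 7 were tested, and 3.77 in males. Of 6 ubiquitin and autophagy partners of Bag3, Synpo2, a muscle protein of actin bundles, was the only one past 2-fold, at 2.44 and 4.56. Dnajb5 had log2 ratios of 0.03 and 1.27. The part of muscle or fat RNA in these ratios was not tested.

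**Figure D4:**
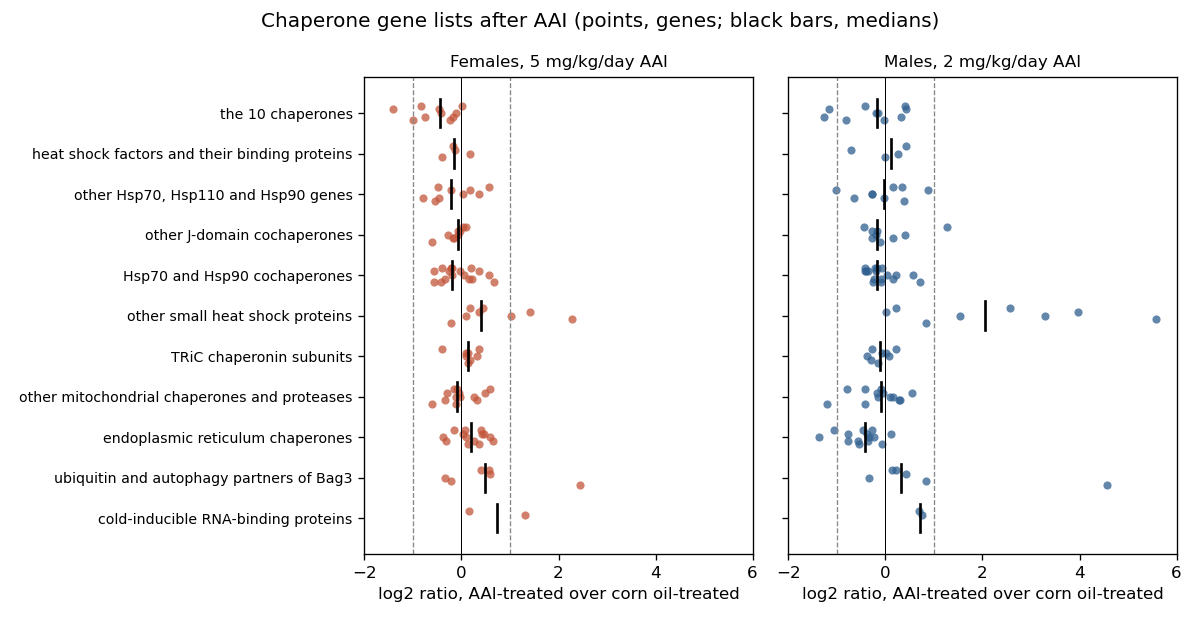
log2 ratio (AAI over corn oil) for every tested gene of each chaperone list, in females on the left and males on the right; points are genes, black bars the median of a list, and dashed lines a 2-fold difference. The 10 chaperones have medians of -0.44 and -0.17, the endoplasmic reticulum chaperones 0.20 and -0.42, and the other small heat shock proteins 0.41 and 2.06.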

How the data were processed

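RNA of 5 livers per group was labelled with Cy3, and the 4 arrays lie on 1 slide. The authors quantified them with Feature Extraction 10.5.1.1 and deposited spot intensities on a linear scale, background-subtracted and, on most arrays, corrected for trends, but not normalized between arrays; a table of the series also holds intensities after the authors' quantile normalization. Probe positions are those of the files (mm9). Control and outlier spots were left out, spots of a probe were averaged as log2 processed intensity, and the 56495 of 56605 probes with a value on all 4 arrays were quantile normalized (Python 3.11.15, pandas 2.3.3). A gene is represented by its brightest probe and was tested where this probe was well above background, on most of its spots, on at least 1 of 2 arrays. Where only 1 array was above background, the ratio is a bound against a value of the other array. This value was the lowest signal above background there or the probe's own signal there, whichever was higher. Where no difference was left, no change was recorded. A gene was counted when its log2 ratio was at least 1 in size. The normexp alternative used limma 3.58.1 with an offset of 50. The functions were tested on simulated data. The depth of arrays is not a count, and their number limits the precision. The chaperones and the 17 other gene lists were chosen with earlier results of these data known. All 10 chaperones were named, at most 4 genes with the largest ratios per other list, Hsf1, Hsp90ab1, Hspa9, Hspa5, Cirbp and Rbm3, and the 5 genes most like the chaperone of widest range, of which 1 is not reported here. Tf, a hepatocyte marker, had no probe of that name.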

Additional observations from a re-analysis of the deposited data

Results flagged for a closer look

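Among the chaperones, Hspb1 moved in opposite directions in the sexes, each beyond the median SD between probes, and its log2 ratio in males minus that in females was 1.82. Among the other genes named by the rule, the same held for Dnaja4, a J-domain protein, with a difference of 0.68, for Hscb, a mitochondrial J-domain protein, with 0.86, for Manf, a secreted protein of the endoplasmic reticulum, with -1.43, and for Star, an adrenal marker, with 4.92. Over all 163 listed genes with a ratio in both sexes, 14 did so. With the normexp background, the female log2 ratio was -0.13 for Star, within the SD between probes of 0.15 there, and -0.17 for Dnaja4. The male log2 ratio of Hspb1, 0.42, was within the 90th percentile of the SD between probes in the main setting, 0.70. With 1 array per group none of these differences was tested, and sex and dose cannot be told apart.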

How the results depend on the processing

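No paired analysis was possible because each group has 1 array, and no array could be left out. Of 140 log2 ratios of the 10 chaperones recomputed under 7 alternatives, 135 moved by less than the median SD between probes and 5 by more, and none of those past 2-fold changed direction. Small ratios in males changed sign for Hspa8 (-0.18 to 0.10), Hspd1 (-0.20 to 0.19) and Bag3 (-0.03 to 0.05). The number of chaperones at least 2-fold lower in females was 2 with scaling to the 75th percentile and 2 with the deposited normalized intensities, where Bag3 joined Hspb1, and 4 and 0 at thresholds of 1.5-fold and 3-fold. In males it was 1 with the normexp background, where Hspa1b reached -0.99, and 0 at 3-fold. Corn oil-treated males and females were 2-fold apart in 2 chaperones with the normexp background, and 1.5-fold apart in 5. Shares of all genes at 1.5-fold and 3-fold were not computed, so the counts at these thresholds have no background beside them. Of 929 ratios of the other named genes, 63 moved by more than the SD between probes and none past 2-fold changed direction. With the background-subtracted signal without trend correction, the small heat shock proteins 2-fold higher in females were 2. The median SD between probes in females was 0.15 with normexp. The single array per group limits every value, and Hspa1a, Hspa1b, Dnajb1, Hspb1 and Bag3 rest on 1 probe each.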

Other observations

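The cold-inducible RNA-binding proteins, transcripts known to rise when body temperature falls, had log2 ratios above 0 in both sexes on their brightest probes. Rbm3 had log2 signals of 12.72 with corn oil and 14.02 with AAI in females, and 13.45 with corn oil and 14.20 with AAI in males, with log2 ratios of 1.30 and 0.75. Of its other 3 probes, 2 gave 1.66 and 1.28 in females and 0.96 and 1.14 in males, and the dimmest gave -0.37 and -0.26. Cirbp had log2 ratios of 0.16 in females and 0.68 in males on its brightest probe, 0.46 and 1.06 on the second and -0.18 and 0.24 on the dimmest. The female ratio of the brightest Cirbp probe was below the SD between probes, and its probes did not give 1 direction in females.

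Clock genes, some of which share a daily rhythm with heat shock transcripts in liver, differed between the pools. Nr1d1, a repressor of the clock, had log2 signals of 4.61 (corn oil) and 10.01 (AAI) in females and 7.90 (corn oil) and 8.49 (AAI) in males. Dbp, a clock output gene, had 10.07, 11.09, 13.29 and 14.02 in the same order. Of 15 clock genes, 2 were at least 2-fold higher in females, where the other 13 stayed within 2-fold and 1.37% of all genes were higher. In males 2 were at least 2-fold lower, beside 4.59% of all genes. Dbp, at 1.02 in females, fell short of 2-fold after scaling to the 75th percentile (0.96) and with the normexp background (0.89). Between the corn oil pools, 4 clock genes were at least 2-fold higher and 2 at least 2-fold lower in males. The part of either group of genes in the chaperone ratios was not tested.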
